A study of Mus musculus with 8 samples.

Results

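The inward rectifier and ATP-sensitive potassium channel genes of the mouse heart were measured in ventricle at 1 week of age and at birth. They comprised 9 of the 22905 genes that the arrays named: the pore subunits Kcnj2, Kcnj12, Kcnj14, Kcnj3, Kcnj5, Kcnj8 and Kcnj11, and the regulatory subunits Abcc8 and Abcc9. The genes were chosen by name, and every probe whose RefSeq accession belongs to them was read on all 8 arrays, which gave 15 of 56590 usable probes. Of these probes, 12 were well above background on all 8 arrays and 2 on none, and each of the 9 genes had at least 1 probe above background on every array.

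The study compared mice homozygous for a deletion of a lysine in cardiac troponin T (TNNT2ΔK210/ΔK210, called KI here), a change known from inherited dilated cardiomyopathy, with wild-type (WT) mice. KI at 1 week, WT at 1 week, KI at birth (0 day) and WT at birth were each measured on 2 single-colour Agilent arrays. Per the labels, each RNA was a combination of 3 ventricles and 100 ng of total RNA was labelled; the sample labels name the tissue as ventricle and the series text as left ventricle. Nothing in them tells if both arrays of a group hold RNA of different animals, so every error and p below covers the spread between arrays alone, and that spread may be technical. The arrays measure whole tissue, in which fewer cells of a type and less RNA per cell cannot be told apart.

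Levels are given as log2 of the signal relative to the 75th percentile over non-control probes of the same array, so a difference of 1 is a 2-fold difference. That percentile ranged from 342 (array D below) to 523 signal units over the 8 arrays, and the share of probes well above background was 58.9% to 63.1%. The deposited value table and the deposited scanner files name different samples for 3 of the 4 arrays at 1 week, which are therefore called A to D. By the value table, B and C were KI and A and D were WT. By the scanner files, C and D were KI and A and B were WT. Genotype at 1 week follows the value table unless the scanner-file record is named. The 4 arrays at birth have the same sample in both records. Array A stood apart in its markers of atrial muscle, whose mean log2 level was 0.66 there and between 3.28 and 4.62 on the other arrays, and of adipocytes, at -2.31 against -0.07 to 0.99 on B, C and D. The arrays of each age lay in a row of their own on the slide, so slide row and age cannot be told apart, and at birth the same holds for genotype and slide column.

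Inward rectifiers pass potassium into a cell more easily than out of it, and in heart muscle they hold the resting membrane near the potassium equilibrium. Channels of the Kir2 family carry this background current, channels of the Kir3 family open when G protein βγ subunits are released by muscarinic or adenosine receptors, and channels of the Kir6 family close when ATP binds. A Kir6 pore is built together with a sulfonylurea receptor, SUR1 from Abcc8 or SUR2 from Abcc9. The cardiac sarcolemmal form is usually described as Kir6.2 with SUR2A, and the form in vascular smooth muscle and pericytes as Kir6.1 with SUR2B. Potassium current density of the mouse heart is known to change in the weeks after birth.

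Tnnt2, the gene that carries the deletion, had log2 levels of 8.21 and 8.20 in KI and 8.33 and 7.77 in WT at 1 week, and 8.19 and 8.11 in KI and 8.16 and 8.30 in WT at birth. KI minus WT was 0.15 ± 0.19 (limma standard error, here and below) at 1 week, -0.28 ± 0.17 in the scanner-file record, and -0.08 ± 0.19 at birth, and the groups overlapped at both ages in the value-table record. The probe reads transcript level and not the deletion, so no array's genotype is checked by it. The ventricular markers that define the labelled tissue here are Myl2, Myl3 and Irx4. Myl2 and Myl3 lay between 8.69 and 9.19 on all 8 arrays. Irx4 lay between 1.94 and 2.50 at 1 week and between 3.03 and 3.35 at birth.

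Over the first week after birth, 4 of the 9 genes rose and 1 fell over both genotypes (limma, Benjamini-Hochberg adjusted p under 0.05 over 15740 genes). Kcnj14, Kcnj8, Kcnj2 and Abcc8 rose, and Kcnj12 fell by its brightest probe though not by the mean of its probes. The background is large: 14.8% of all genes tested rose and 14.5% fell, 29.3% in all. The median difference of the 9 genes was 0.43, against -0.03 over all genes tested. Groups of the 2 ages did not overlap for 4 genes that were higher (Kcnj2, Kcnj14, Kcnj8 and Abcc9) and 1 that was lower (Kcnj12), against 16.2% of all genes higher, 19.4% lower and 35.6% in either direction. In the scanner-file record, where the same arrays form other groups and the spread is estimated anew, 3 genes rose (Kcnj14, Kcnj8 and Kcnj2) and 0 fell, against 15.0% of genes rising, 15.1% falling and 30.1% in all. An unadjusted p under 0.05 in limma was found for 8 of the 9 genes in both records, against 42.8% of all genes by the value table and 43.4% by the scanner files. Dividing by the array median in place of the 75th percentile gave 1687 called genes higher and 2497 lower, against 2325 higher and 2281 lower.

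**Figure D1:**
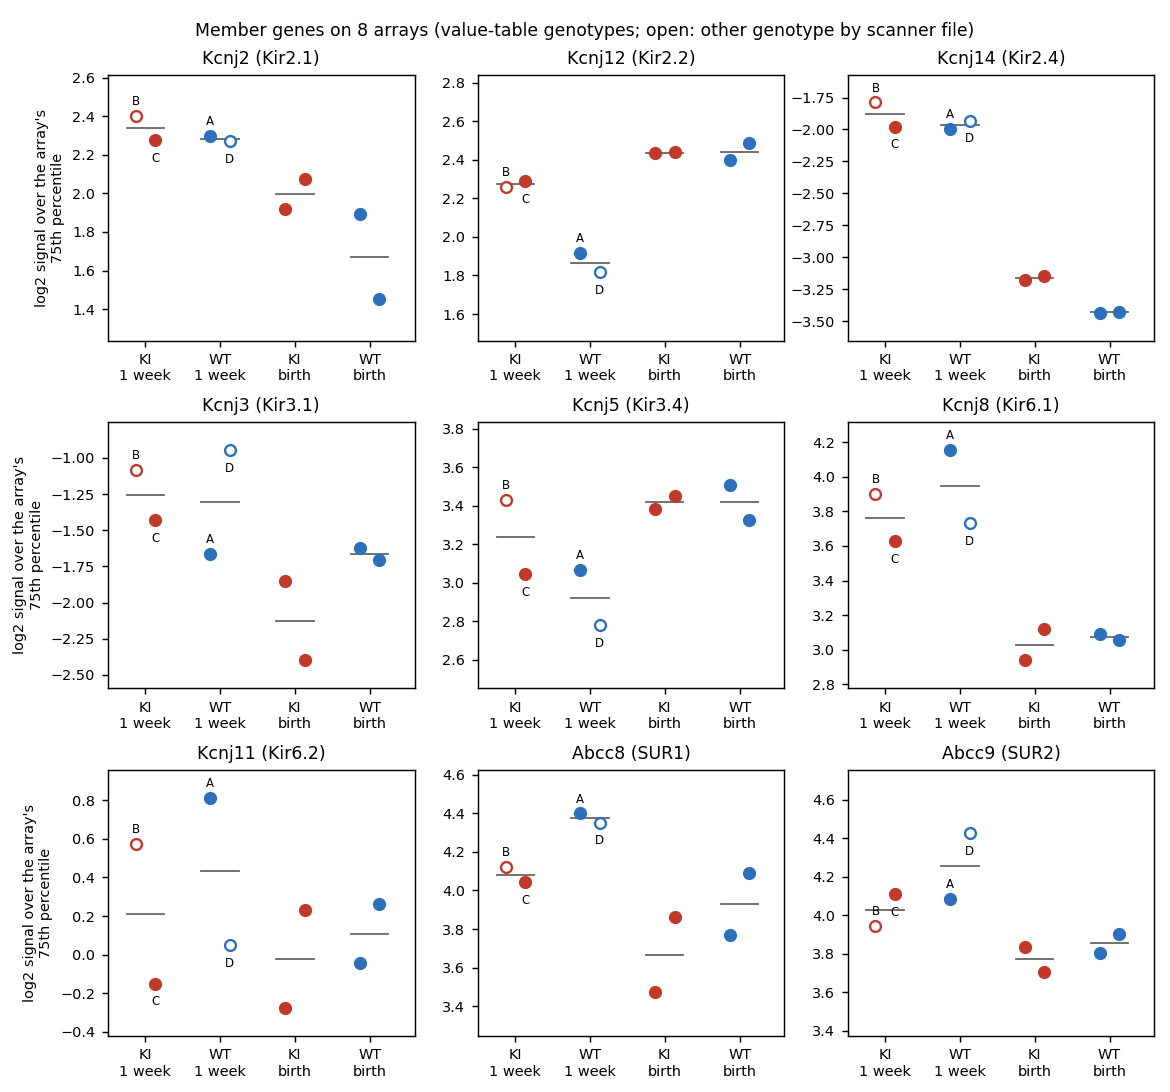
Log2 signal of the brightest probe of each gene (y axis, relative to the array's 75th percentile) for each array (points) and group mean (lines), with genotype at 1 week by the value table; open points are arrays B and D, which have the other genotype by the scanner files. Kcnj14 lies between -1.99 and -1.79 at 1 week and between -3.43 and -3.15 at birth, whereas the ages overlap for Kcnj11.

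Of the 3 Kir2 genes among the 9, 2 rose and 1 fell by their brightest probes. Kcnj14, which encodes Kir2.4, had the largest difference with age of the 9 genes by its brightest probe. It stood at -1.79 and -1.98 in KI and -1.99 and -1.93 in WT at 1 week, against -3.18 and -3.15 in KI and -3.43 and -3.42 in WT at birth. All 4 arrays at 1 week lay above all 4 at birth, by 1.37 ± 0.09 or 2.59-fold (adjusted p = 1.7e-04). The 2 groups at 1 week overlapped, and at birth both KI arrays lay above both WT arrays. The rise was called in KI (1.28 ± 0.12, adjusted p = 0.00207) and in WT (1.47 ± 0.12, adjusted p = 0.0011). It was called in all 16 alternatives tried, with values from 0.76 to 1.42; the lowest came from averaging with a second Kcnj14 probe, which was not well above background on any array, and normexp background correction gave 0.80.

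Kcnj2 encodes Kir2.1, the main carrier of the background inward rectifier current in ventricular muscle. Its level was 2.40 and 2.28 in KI and 2.30 and 2.27 in WT at 1 week, against 1.92 and 2.08 in KI and 1.89 and 1.45 in WT at birth. The ages did not overlap, and the order of group means was KI at 1 week, WT at 1 week, KI at birth and WT at birth, of which only the 2 groups at 1 week overlapped. The difference with age was 0.48 ± 0.12 or 1.39-fold (adjusted p = 0.0259), and a second, dimmer probe gave 0.41 ± 0.10 (adjusted p = 0.0291). In WT alone the rise was 0.61 ± 0.17 (adjusted p = 0.0484) and in KI 0.34 ± 0.17 (adjusted p = 0.267). The WT call held in 5 of 17 alternatives, with adjusted p up to 0.19, and was lost with the replicate number as a block (adjusted p = 0.0567). The call over both genotypes held in 8 of 16 alternatives, was lost when array B, C or D or 1 of 3 birth arrays was left out, and adjusted p ranged from 0.00456 to 0.0865.

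Kcnj12 encodes Kir2.2, a partner of Kir2.1 in mixed channels. Its brightest probe stood at 2.26 and 2.29 in KI and 1.92 and 1.82 in WT at 1 week, against 2.44 and 2.44 in KI and 2.40 and 2.49 in WT at birth. Every array at 1 week lay below every array at birth, and both WT arrays lay below both KI arrays at 1 week. The age difference was -0.37 ± 0.08 or 1.29-fold lower (adjusted p = 0.0165). A second Kcnj12 probe, also above background on all arrays, had the opposite sign and did not pass. It stood at 1.91 and 1.26 in KI and 1.65 and 1.58 in WT at 1 week, against 1.36 and 1.37 in KI and 0.96 and 1.32 in WT at birth, a difference of 0.35 ± 0.16 (adjusted p = 0.161). The mean of the 2 probes gave -0.01 ± 0.11 (adjusted p = 0.944), so the direction for Kcnj12 is that of 1 probe. The call was also lost in the scanner-file record (adjusted p = 0.0809) and held in 9 of 16 alternatives.

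The promoters of Kcnj2 and Kcnj12, on mouse chromosome 11, are shown because the brightest probes of these genes differ in the direction of change, each from 250 bases before to 10 bases after the RefSeq gene start in GRCm38.p6. The Kcnj2 window is chr11:111065914-111066173 and the Kcnj12 window chr11:61065554-61065813, both on the plus strand. Capitals mark matches to any of 5 short motifs searched on both strands and chosen after the promoters were seen: the TATA box (TATAAA), the CCAAT box (CCAAT), the GC box (GGGCGG), a MEF2 site (CTAAAAATA) and a GATA site (AGATAA). Of 32851 mouse promoter windows, 12.7% hold the TATA letters, 34.6% CCAAT, 33.4% the GC box, 0.49% the MEF2 letters and 10.3% the GATA letters, and the motifs do not overlap here.
Kcnj2: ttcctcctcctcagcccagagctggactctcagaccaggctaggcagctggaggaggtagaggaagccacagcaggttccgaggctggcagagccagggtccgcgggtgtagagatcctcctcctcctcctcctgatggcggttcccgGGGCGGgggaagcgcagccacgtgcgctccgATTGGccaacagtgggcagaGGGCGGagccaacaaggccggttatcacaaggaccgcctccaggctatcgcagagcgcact
Kcnj12: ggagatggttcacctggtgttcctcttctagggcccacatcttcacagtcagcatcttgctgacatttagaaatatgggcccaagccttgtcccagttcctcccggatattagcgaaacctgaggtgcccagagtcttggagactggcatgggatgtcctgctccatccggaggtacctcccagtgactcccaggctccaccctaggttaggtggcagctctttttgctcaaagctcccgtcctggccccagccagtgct
The Kcnj2 window holds GC boxes that begin at positions -102 and -51 from the gene start and a reversed CCAAT box between them, at -71. None of the 5 motifs occurs in the Kcnj12 window. The GC content of the windows is 65.4% for Kcnj2 and 56.2% for Kcnj12, against a median of 52.3% over all windows.

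The Kir3 genes encode the G protein-gated channel, Kir3.1 from Kcnj3 and Kir3.4 from Kcnj5, which is best known from atrial and nodal cells. Kcnj3 stood at -1.08 and -1.43 in KI and -1.66 and -0.94 in WT at 1 week, against -1.85 and -2.40 in KI and -1.62 and -1.70 in WT at birth. Array A at 1 week lay within the range of the WT arrays at birth, and the other 3 arrays at 1 week lay above every birth array. The difference with age was 0.61 ± 0.20 (adjusted p = 0.0573), and a second probe gave 0.83 ± 0.27 (adjusted p = 0.0633). Without array A the difference was 0.79 and passed (adjusted p = 0.018), as did the mean of both probes (0.72, adjusted p = 0.0453). Array A is also the array with the least atrial signal: the summed level of the 5 atrial markers was 62.0 times the 75th percentile on A, 399 to 473 on B, C and D and 431 to 580 at birth. Of its defining markers, Sln was -1.06 on A against 3.78 to 5.03 on B, C and D, and Myl7 2.08 against 5.90 to 6.91. Over the 8 arrays, Pearson r with the mean log2 level of the atrial markers was 0.29 for Kcnj3, 0.01 for Kcnj5 and -0.33 for Abcc8. For Kcnj3, r was higher with the fibroblast (0.84), adipocyte (0.81) and pacemaker (0.80) markers, and lowest with the skeletal muscle markers (-0.755). Markers that differ with age can have a high r here, because the arrays are of 2 ages. Array A also had fewer adipocyte transcripts than B, C and D, as given above. The part of atrial tissue or of other cell types in the Kcnj3, Kcnj5 and Abcc8 values was not tested.

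Kcnj5 stood at 3.43 and 3.04 in KI and 3.07 and 2.78 in WT at 1 week, against 3.38 and 3.45 in KI and 3.51 and 3.33 in WT at birth. Array B lay within the birth range and the other 3 arrays at 1 week lay below it. The difference with age was -0.34 ± 0.13 (adjusted p = 0.0834), the reverse of its partner's sign, and neither of the pair passed. Of the 16 alternatives, only normexp background correction brought Kcnj5 past the threshold (-0.39, adjusted p = 0.0472).

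The Kir6 genes encode the pore of the ATP-sensitive channel. Kcnj8, which encodes Kir6.1, stood at 3.90 and 3.63 in KI and 4.16 and 3.73 in WT at 1 week, against 2.94 and 3.12 in KI and 3.09 and 3.06 in WT at birth. All arrays at 1 week lay above all arrays at birth, by 0.80 ± 0.13 or 1.75-fold (adjusted p = 0.00445), and within each age the genotypes overlapped. The rise was called in WT (0.87 ± 0.18, adjusted p = 0.0194) and in KI (0.74 ± 0.18, adjusted p = 0.0468), and over both genotypes in all 16 alternatives, with values from 0.70 to 0.91. In KI alone it held in 5 of 17 alternatives, with adjusted p up to 0.226, and was lost with the replicate number as a block (adjusted p = 0.0537).

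Kcnj11, which encodes Kir6.2, stood at 0.58 and -0.15 in KI and 0.81 and 0.05 in WT at 1 week, against -0.28 and 0.23 in KI and -0.05 and 0.26 in WT at birth. The ages overlapped, and the difference was 0.28 ± 0.24 (adjusted p = 0.418), with a 95% interval of -0.29 to 0.85. The brightest probe was high on arrays A and B and lower on C and D, and a second probe gave the same division, with -2.51 and -2.72 on A and B against -3.92 and -3.90 on C and D. This division is that of the scanner-file genotypes, in which KI minus WT at 1 week was -0.75 ± 0.21 (adjusted p = 0.428), against -0.22 ± 0.34 (adjusted p = 0.851) by the value table. Neither passed.

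The sulfonylurea receptor genes were both higher at 1 week, and 1 passed. Abcc9, which encodes SUR2, stood at 3.94 and 4.11 in KI and 4.09 and 4.42 in WT at 1 week, against 3.83 and 3.71 in KI and 3.81 and 3.90 in WT at birth. Every array at 1 week lay above every array at birth, yet the difference of 0.33 ± 0.11 or 1.26-fold did not pass (adjusted p = 0.063). Of 16 alternatives it passed in 1, without array A (0.41, adjusted p = 0.0237), with adjusted p up to 0.173 in the others.

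Abcc8 encodes SUR1, the receptor of pancreatic beta cells that is also found in mouse atria. Its brightest probe stood at 4.12 and 4.04 in KI and 4.40 and 4.35 in WT at 1 week, against 3.47 and 3.86 in KI and 3.77 and 4.09 in WT at birth. The ages overlapped through array C and WT replicate 2 at birth. The difference was 0.43 ± 0.12 or 1.35-fold (adjusted p = 0.0396), and it passed in 7 of 16 alternatives, with adjusted p from 0.0315 to 0.121. It did not pass in the scanner-file record (adjusted p = 0.0652) or when any 1 of the 4 arrays at 1 week, or the first array of either genotype at birth, was left out. A second Abcc8 probe was not well above background on any array, so the level rests on 1 probe.

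Gene order sets these subunits beside each other: Kcnj8 and Abcc9 on chromosome 6, and Kcnj11 and Abcc8 on chromosome 7, have 0 protein-coding genes between them in GRCm38.p6. The promoters of Kcnj8 and Abcc9, both on the minus strand, are shown because both of these neighbours lay higher on every array at 1 week than on any array at birth. The windows are chr6:142571605-142571864 for Kcnj8 and chr6:142702265-142702524 for Abcc9, printed 5′ to 3′ on the gene's strand, with capitals as above.
Kcnj8: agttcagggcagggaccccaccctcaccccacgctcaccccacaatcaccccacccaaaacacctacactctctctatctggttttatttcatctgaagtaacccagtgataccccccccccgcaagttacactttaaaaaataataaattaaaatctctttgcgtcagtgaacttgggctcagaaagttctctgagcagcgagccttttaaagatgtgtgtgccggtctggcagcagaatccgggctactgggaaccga
Abcc9: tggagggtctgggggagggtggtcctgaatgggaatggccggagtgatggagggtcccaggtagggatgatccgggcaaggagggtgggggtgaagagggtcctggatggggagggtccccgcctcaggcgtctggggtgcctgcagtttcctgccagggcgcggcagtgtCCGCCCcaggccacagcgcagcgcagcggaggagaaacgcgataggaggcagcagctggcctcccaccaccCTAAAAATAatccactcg
The Abcc9 window holds a reversed GC box that begins at -79 and the MEF2 letters at -8, whereas the Kcnj8 window holds none of the 5 motifs. GC content is 49.6% for Kcnj8 and 66.2% for Abcc9. The other windows matched were those of Kcnj3, with a reversed CCAAT box at -188, and Kcnj5, with GC boxes at -63 and -22. A match describes the letters in a window and nothing about binding.

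**Figure D2:**
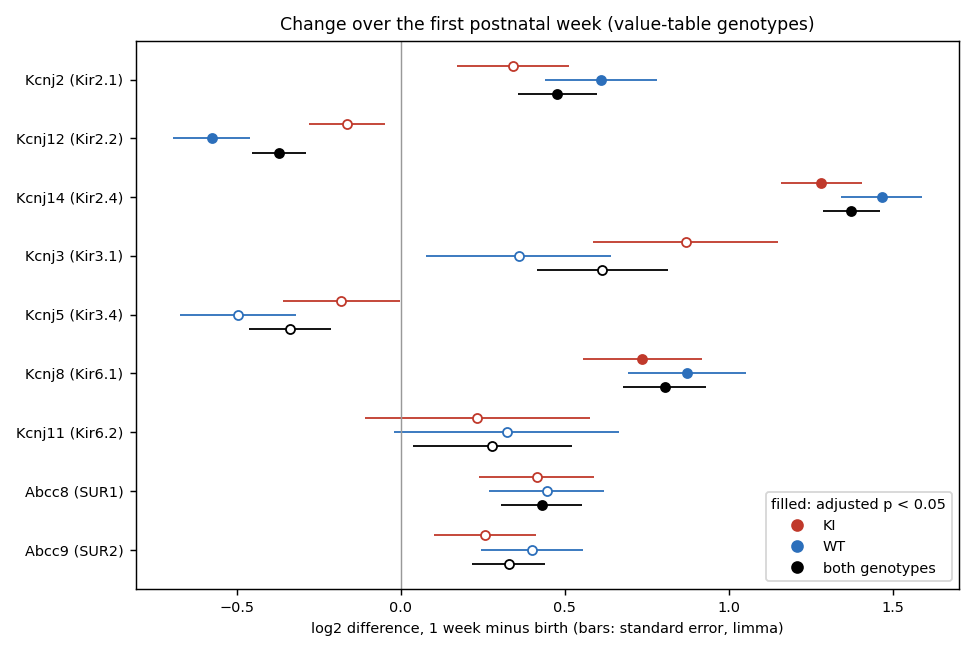
Log2 difference of each gene, 1 week minus birth (x axis), in KI, in WT and over both genotypes, with limma standard errors as bars and filled points for adjusted p under 0.05. Kcnj14 (1.37) and Kcnj8 (0.80) are filled in all 3 sets, and Kcnj12 (-0.37) and Kcnj5 (-0.34) lie left of 0.

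Within the genotypes, 2 of the 9 genes rose in KI, Kcnj14 and Kcnj8, and 0 fell, against 5.85% of genes rising, 4.75% falling and 10.6% in all. In WT 3 rose (Kcnj14, Kcnj8 and Kcnj2, whose call held in 5 of 17 alternatives) and Kcnj12 fell by its brightest probe. The shares of all genes were 10.0% rising, 8.96% falling and 19.0% in all. The second Kcnj12 probe had the opposite sign in WT, at 0.47 ± 0.23 (adjusted p = 0.192 in limma). By the scanner files Kcnj14 and Kcnj8 rose in KI, against 8.35% of genes, and Kcnj14, Kcnj8 and Kcnj2 in WT, against 6.98%. A gene called in WT and not in KI is not thereby shown to differ between them. The test of that difference, age by genotype, called none of the 9 genes in either record. The smallest adjusted p was 0.888, and 0.00635% of all genes were called. An unadjusted p under 0.05 was found for 1 gene, Kcnj12 (0.41 ± 0.16 by its brightest probe), against 4.84% of all genes. Its second probe had the opposite sign, at -0.26 ± 0.33. In the scanner-file record the smallest adjusted p was 0.822, with 0 of the 9 genes at an unadjusted p under 0.05, against 6.29% of all genes, and 0% of all genes called.

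KI against WT asked whether channel transcripts differ in the mutant ventricle, and at neither age did any of the 9 genes pass. At 1 week 0.0508% of all genes were called, the smallest adjusted p among the 9 genes was 0.564, and 1 gene had an unadjusted p under 0.05 in limma, against 7.07% of all genes. That gene was Kcnj12, at 0.41 ± 0.12 in KI minus WT by its brightest probe and -0.03 ± 0.23 by its second probe. In the scanner-file record the value of the brightest Kcnj12 probe was -0.03 ± 0.19. There the smallest adjusted p was 0.428 (Kcnj11), 2 genes (Kcnj11 and Kcnj8) had an unadjusted p under 0.05, against 9.86% of all genes, and 0.00635% of all genes were called. At birth 0.0381% of all genes were called by the value table and 0% by the scanner files, and 0 of the 9 genes had an unadjusted p under 0.05 in limma, against 4.71% of all genes by the value table and 4.3% by the scanner files. The largest differences at birth were -0.46 ± 0.28 for Kcnj3, 0.32 ± 0.17 for Kcnj2 and 0.27 ± 0.12 for Kcnj14.

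Arrays of the 2 genotypes did not overlap for 2 of 9 genes at 1 week by the value table (Kcnj12 higher and Abcc8 lower in KI), against 37.9% of all genes, 19.8% higher and 18.0% lower. By the scanner files this held for 5 genes, Abcc9 higher and Kcnj2, Kcnj5, Kcnj8 and Kcnj11 lower in KI, against 40.1% of genes, 20.2% higher and 19.9% lower. At birth it held for 3 genes, Kcnj2 and Kcnj14 higher and Kcnj3 lower in KI, against 31.9% of genes, 16.7% higher and 15.2% lower. The count is below the background share at 1 week by the value table, near it at birth, and above it by the scanner files. The sign of KI minus WT at 1 week depended on the record for Kcnj5 (0.32 by the value table and -0.34 by the scanner files), Abcc9 (-0.23 and 0.25), Kcnj2 (0.05 and -0.08), Kcnj14 (0.08 and -0.06) and Kcnj12. The 95% interval of KI minus WT lay within 1 log2 unit of 0 for 8 of the 9 genes at both ages. At 1 week the exception, Kcnj11, had an interval of -1.03 to 0.59, and at birth Kcnj3 had one of -1.13 to 0.20, so a 2-fold lower level in KI lay inside both intervals.

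**Figure D3:**
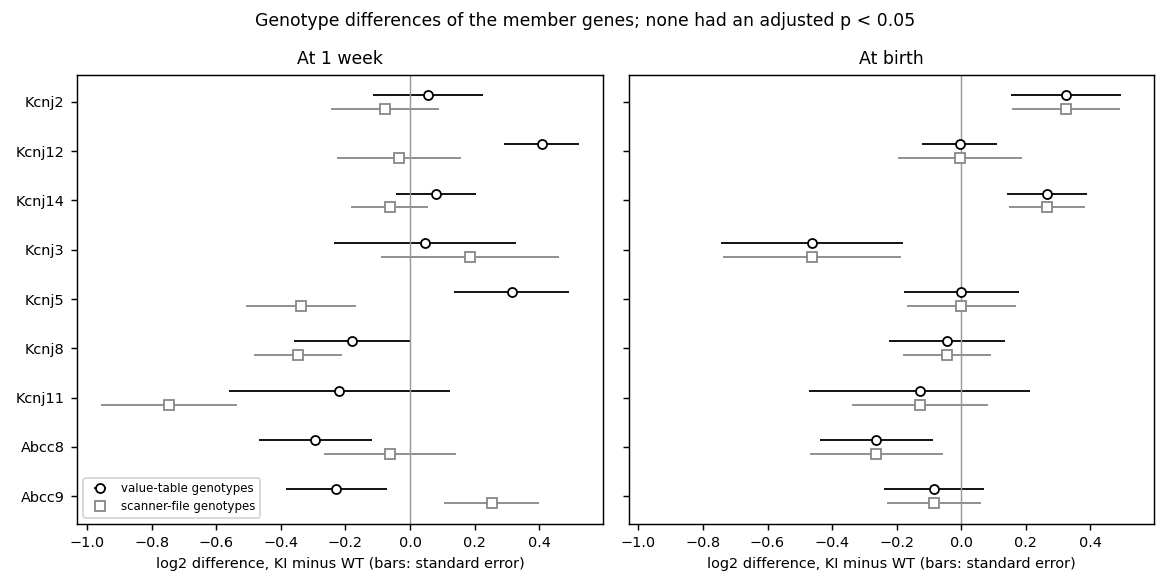
Log2 difference, KI minus WT (x axis), of each gene at 1 week and at birth, with genotypes by the value table (circles) and by the scanner files (squares) and limma standard errors as bars. At birth both records hold the same arrays and the differences coincide; at 1 week Kcnj5 and Abcc9 change sign with the record and Kcnj11 lies at -0.22 or -0.75.

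Some related channel genes were also called between the ages, against 14.8% of all genes tested rising, 14.5% falling and 29.3% in all. Of 8 other inward rectifier genes, 3 could be tested and 1 passed: Kcnj4, which encodes Kir2.3, stood at -2.37 and -2.25 in KI and -2.20 and -2.47 in WT at 1 week, against -0.07 and 0.32 in KI and 0.66 and 1.03 in WT at birth. All arrays at 1 week lay below all at birth, by -2.81 ± 0.14 or 7.00-fold lower (adjusted p = 7.5e-05). Of 14 two-pore potassium channel genes, which carry leak current, 7 were tested, 2 rose and 0 fell. They were Kcnk13 (2.20 ± 0.15, adjusted p = 2.1e-04) and Kcnk6 (0.66 ± 0.09, adjusted p = 0.00261). In the scanner-file record 1 other inward rectifier gene rose and 1 fell, and 3 two-pore genes rose and 1 fell. The shares of all genes there were 15.0% rising, 15.1% falling and 30.1% in all.

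The list of receptors, G proteins and their regulators that act on Kir3 channels held 21 genes, all tested, of which 4 rose and 5 fell, with a median of -0.08. The shares of all genes, here and for the anchoring genes below, were 14.8% rising, 14.5% falling and 29.3% in all. The list was planned as a whole, and the split by role that follows was not planned. Of the 15 receptor and G protein genes 1 rose (the β subunit gene Gnb4, 0.32) and 5 fell, and of the 6 regulator genes 3 rose and 0 fell. The A1 adenosine receptor gene Adora1 (-0.99 ± 0.08), the G protein γ subunit gene Gng2 (-2.06 ± 0.16) and the inhibitory α subunit gene Gnai1 (-0.70 ± 0.11) fell, with adjusted p of 3.7e-04, 3.2e-04 and 0.00471. Among regulators of G protein signalling, some of which speed the closing of these channels, Rgs4 (2.20 ± 0.19, adjusted p = 3.9e-04), Rgs10 (0.77 ± 0.09, adjusted p = 0.00146) and Rgs2 (0.38 ± 0.09, adjusted p = 0.0221) rose. Rgs6, with means of -0.42 at 1 week and -0.60 at birth, did not pass. Of 10 genes for proteins that anchor channels, 2 rose and 1 fell, with a median of -0.15. These were the caveolin gene Cav1 (0.58 ± 0.12, adjusted p = 0.0122), the filamin gene Flna (0.56 ± 0.09, adjusted p = 0.00559) and the dystrophin gene Dmd (-0.36 ± 0.11, adjusted p = 0.0427). In the scanner-file record 4 of the 21 genes rose and 4 fell, and 2 anchoring genes rose and 0 fell. The shares of all genes there were 15.0% rising, 15.1% falling and 30.1% in all. None of the genes on these 4 lists passed in KI against WT at either age, with 0.0508% of all genes called at 1 week and 0.0381% at birth.

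**Figure D4:**
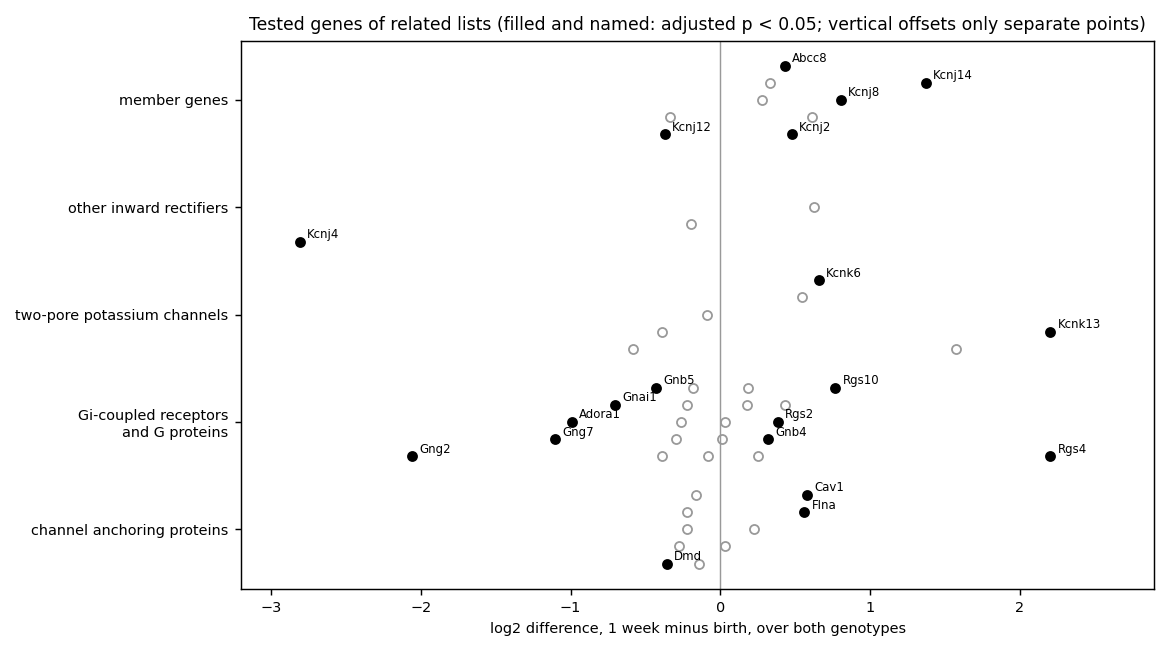
Log2 difference, 1 week minus birth over both genotypes (x axis), of the tested genes of each list (rows), filled and named where the adjusted p was under 0.05; vertical offsets only separate points. Kcnj4 (-2.81) and Gng2 (-2.06) lie farthest left and Kcnk13 and Rgs4 (both 2.20) farthest right.

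Some cell type markers were called with age as well, against 14.8% of all genes tested rising, 14.5% falling and 29.3% in all. A summed signal mostly follows the brightest genes of its list. Ventricular muscle markers had a summed signal of 2363 to 2597 times the 75th percentile at 1 week and 2339 to 2515 at birth, and 1 of 9 (Irx4, -0.93) fell. Of 10 mural cell markers, which mark pericytes and vascular smooth muscle, 6 rose and 2 fell, with sums of 135 to 191 at 1 week and 144 to 196 at birth; the defining markers were Rgs5 (1.44), Pdgfrb (0.50) and Myh11 (1.33), all of which rose. The 2 that fell were the contractile markers Cnn1 (-2.14) and Acta2 (-0.47). Endothelial markers rose in 5 of 9, with sums of 184 to 256 at 1 week and 141 to 147 at birth, and of the defining markers Kdr (0.98) and Pecam1 (0.56) rose and Cdh5 (0.49) did not pass. Fibroblast markers rose in 5 of 8 and fell in 1, with sums of 432 to 561 at 1 week and 230 to 275 at birth; of the defining markers Col1a1 (0.50) rose, Tcf21 (-0.34) fell and Pdgfra (0.34) did not pass. In the scanner-file record 2 ventricular markers fell, 6 mural markers rose and 1 fell, and 6 endothelial markers rose. Of the fibroblast markers 6 rose and 1 fell there. The shares of all genes in that record were 15.0% rising, 15.1% falling and 30.1% in all. The part of these cells in the Kcnj8, Abcc9, Kcnj14, Kcnj2 and Abcc8 values was not tested.

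For the lists that follow, the shares of all genes were again 14.8% rising, 14.5% falling and 29.3% in all. Macrophage markers rose in 4 of 7, with sums of 11.5 to 15.9 at 1 week and 7.77 to 10.0 at birth. Adgre1 (0.83) and Csf1r (0.84) were among them but not C1qa (0.06). Nerve and Schwann cell markers rose in 3 of the 6 tested, with sums of 5.73 to 7.01 at 1 week and 2.56 to 3.22 at birth, and their defining marker Sox10 rose by 1.16. Pacemaker and conduction markers rose in 2 and fell in 1 of the 5 tested, with sums of 6.39 to 10.6 at 1 week and 5.36 to 6.85 at birth, and of the defining markers Tbx3 (0.69) rose. Adipocyte markers rose in 3 of 8 (Adipoq, Ucp1 and Cidea), with sums of 177 to 253 at 1 week and 173 to 199 at birth. Most of each adipocyte sum was Fabp4, which lay at 7.21 to 7.76 over the 8 arrays. The sum was 183 on A and 177 on B. The defining adipocyte markers Adipoq, Ucp1 and Plin1 were well above background on B, C and D only. Adipoq was at least 3.22-fold and Ucp1 at least 22.6-fold higher at 1 week, and Plin1 did not pass. In the scanner-file record 3 macrophage and 5 adipocyte markers rose, against 15.0% of all genes rising. The counts of the other lists of this paragraph were the same in both records. Atrial markers passed in 0 of the 4 tested, skeletal muscle markers fell in 2 of the 4 tested (sums of 3.72 to 6.43 at 1 week and 6.01 to 7.58 at birth), and erythroid markers rose in 1 of 4, Alas2 (0.96), with sums of 446 to 656 at 1 week and 449 to 475 at birth.

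Genes whose pattern over the 8 arrays was most like that of each channel gene were found among 13516 genes above background on every array. Because the arrays are of 2 ages, genes that differ with age have a high Pearson r with one another, and the values are a description. Kcnj14 was most like Asap3, Itga7 and Limch1 (Pearson r of 0.997, 0.995 and 0.995), and 858 genes reached an r of 0.9 with it. Kcnj8 was most like Fbp2, Scgb1c1 and Hhatl (r = 0.99 each), and Abcc9 most like Itgb4 (0.99), Matn2 and Tmod3 (0.98 each). Kcnj2 was most like Grk2 (0.99), Zfp961 and Rpia (0.98 each), and Kcnj12 most like Paip2b, Gstk1 and Ppm1e (0.98 each). Abcc8 was most like P2ry14 (0.99), Asb14 (0.98) and Elane (0.98). The lowest values belonged to Kcnj11, with Lrg1 (0.98), Mvp and Akt2 (0.97 each), to Kcnj3, with Matn4 (0.97), Tceal3 and Fmod (0.96 each), and to Kcnj5, with Dusp27, Mtrr (0.96 each) and Mitf (0.95). For Kcnj3, 21 genes reached an r of 0.9. No channel gene was among the 3 most like another.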

How the data were processed

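RNA of ventricle was measured on 8 single-colour arrays. The authors deposited scanner files holding each spot's processed intensity, corrected for background within the array and not normalized between arrays, per the file headers. The deposited flags (other) mark controls, outliers and probes well above background. The deposited value table holds the same intensity. Per the file headers, Feature Extraction 11.0.1.1 and build mm9 were used; the submitters' processing notes give version 9.1. Over 56305 probes with 1 spot, each value-table column equalled the scanner file of 1 sample at a relative tolerance of 0.0001, but for 3 of the 4 at 1 week this was another sample's file.

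Spots were averaged per probe without outliers, log2 transformed, and the array's 75th percentile of non-control probes was subtracted. Symbols came from RefSeq accessions (GRCm38.p6), which named 32983 probes of 22905 genes. Because this build differs from that of the files, no probe coordinates are given. The brightest probe stood for a gene, and a gene was tested if some group had it well above background on both its arrays, which kept 15740 genes (15753 in the scanner-file record). Tests were made with limma 3.58.1 (R 4.3.3) on all 8 arrays, with 4 residual degrees of freedom and Benjamini-Hochberg adjustment in each of 6 comparisons. The script was tested on simulated data. A fold against probes not well above background is a lower bound, set by the lowest signal among probes well above background on each array.

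The genes named were the 9 members with every probe, Tnnt2, up to 3 genes of smallest p in each direction from each functional list, the first 3 of each marker list, and the 3 genes of most alike pattern to each member. Cidea, Fabp4, Cnn1, Acta2, Gnb4 and Rgs6, outside this rule, were named after their values were seen. The split of the receptor, G protein and regulator list by role was not planned either. The members and lists were chosen with earlier results of these data known. Alternatives were the scanner-file samples, normexp background correction (offset 50), quantile normalization, median scaling, no signal filter, the mean of a gene's probes, only the arrays compared, the replicate number as a block, leaving out each array, and, added after seeing the data, a fit of 23032 probes, which gives the p-values of second probes. Promoter windows are from RefSeq (GRCm38.p6), in which 6 of the 9 genes matched. Figures were drawn with matplotlib 3.10.9.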

Additional observations from a re-analysis of the deposited data

How the results depend on the processing

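Of the values for the 9 channel genes under all alternatives, 787 kept their direction and side of the threshold, 58 lost a call, 5 gained one and 50 changed sign, and 0 of the 50 belonged to a called difference. Counts of all called genes moved more, and the cause was not tested. KI against WT at birth called 6 genes, and 0 with the scanner-file samples, with no signal filter, with only the arrays compared or with the replicate number as a block; leaving out 1 array gave 0 to 7. At 1 week it called 8 genes, against 1 with the scanner-file samples, 4 with normexp, 3 with no signal filter, 3 with the mean of a gene's probes and 0 with only the arrays compared; leaving out 1 array gave 2 to 22, the most without array A. Age by genotype called 1 gene, against 0 with the scanner-file samples, quantile normalization, no signal filter or the replicate block and 2 with median scaling, and 0 to 4 without 1 array. The age comparison in WT called 2987 genes, 1868 with no signal filter, 1453 with only the arrays compared and 1190 to 4177 without 1 array (lowest without WT replicate 1 at birth). In KI it called 1669, 1073 with no signal filter and 558 to 2022 without 1 array (lowest without array B). Over both genotypes it called 4606, and 2920 to 5558 without 1 array, the lowest without array B. Median scaling moved the median of all genes by -0.16 in the WT age comparison and 0.15 in age by genotype, and turned the split of calls in WT to 1001 higher and 1756 lower, against 1576 and 1411.

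The sign changes include Kcnj12 (0.41) and Kcnj5 (0.32) in KI minus WT at 1 week, each past its standard error, and fell on no called difference. In KI minus WT at birth, Kcnj12 became 0.058 with normexp, 0.0031 with quantile normalization and 0.109 with the mean of probes, and Kcnj5 became 0.023 with normexp and 0.012 with quantile normalization. At 1 week the scanner-file samples gave 0.25 for Abcc9, -0.034 for Kcnj12, -0.063 for Kcnj14, -0.077 for Kcnj2 and -0.34 for Kcnj5; normexp gave -0.045 and the mean of probes -0.055 for Kcnj14, and the mean of probes -0.014 for Kcnj3. In age by genotype the scanner-file samples gave 0.20 for Abcc8, 0.34 for Abcc9, -0.029 for Kcnj12 and -0.34 for Kcnj5, median scaling gave 0.12 for Abcc8, 0.0021 for Abcc9, 0.056 for Kcnj11 and 0.0100 for Kcnj8, and the mean of probes gave 0.13 for Abcc8. In the age comparison in KI the scanner-file samples gave -0.030 for Kcnj11 and the mean of probes 0.027 for Kcnj12.

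Leaving out 1 array gave, for KI minus WT at birth, -0.38 to 0.13 for Kcnj11, -0.049 to 0.039 for Kcnj12, -0.091 to 0.090 for Kcnj5 and -0.13 to 0.045 for Kcnj8. At 1 week it gave -0.60 to 0.16 for Kcnj11, -0.013 to 0.18 for Kcnj14, -0.0086 to 0.12 for Kcnj2, -0.31 to 0.40 for Kcnj3 and -0.39 to 0.031 for Kcnj8. For age by genotype it gave -0.22 to 0.16 for Abcc8, -0.31 to 0.026 for Abcc9, -0.47 to 0.29 for Kcnj11 and -0.35 to 0.075 for Kcnj8. The age difference of Kcnj11 ranged from -0.059 to 0.71 in WT and from -0.13 to 0.60 in KI, and that of Kcnj5 from -0.37 to 0.014 in KI.

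The labels give the replicate numbers no shared source. Deviations of same-numbered arrays correlated at 0.29 and 0.16 between genotypes at birth and at 1 week, and at 0.15 in WT and -0.14 in KI between ages; by the scanner files these were 0.28, -0.16, -0.03 and 0.18, so the values do not settle a pairing. With the replicate block, the rise of Kcnj8 in KI (0.74, adjusted p = 0.0537) and that of Kcnj2 in WT (0.61, adjusted p = 0.0567) no longer passed, and no other call for the 9 genes changed. With 2 arrays a group, the number of arrays limits precision, and an array left out leaves 1 assumed to vary like the others.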
